A study of Mus musculus with 9 samples.

Results

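Transcripts of 10 core circadian clock genes were followed in mouse epidermis. They were Clock, Arntl, Per1, Per2, Per3, Cry1, Cry2, Nr1d1, Nr1d2 and Dbp, which form the core clock loop and its D-box output. They were taken by gene symbol from the 52550 genes of the count table. The choice was made with earlier results of these data known, so it was not independent of them. All 10 passed the filter on low counts in each comparison.

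RNA sequencing had been performed on epidermal sheets of mouse ear skin, with 3 libraries in each of 3 groups. All mice were wild-type animals labelled as C57BL/6 (C57BL/6J in the study's methods) and as 8 weeks old, and the methods state that they were male. In the VAS+H2O group, Vaseline was applied for 5 days and water (ddH2O) was given by gavage for 10 days. In the IMQ+H2O group, imiquimod cream, a Toll-like receptor agonist that causes psoriasis-like dermatitis in mice, replaced Vaseline for the same 5 days. In the IMQ+XYF group, the mice also received 200 µl of Xiao-Yin-Fang decoction, a herbal prescription at 23.3 mg/g in the labels, by daily gavage for 10 days in place of water. The labels do not say whether the libraries of a group came from separate mice, and the methods speak of ear sheets from 2 mice without tying them to libraries, so the p-values measure the spread between these libraries, which may be technical. The mice were kept under a light and dark cycle, but the hour of tissue collection is not given in the sources used here. Transcripts of the clock cycle over the day, so a difference in collection time between groups and an effect of treatment cannot be told apart.

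The clock is a feedback loop of transcription factors that runs in nearly every cell type. CLOCK and BMAL1 (the product of Arntl) bind E-boxes together and activate the period genes (Per1, Per2, Per3), the cryptochromes (Cry1, Cry2), the REV-ERB receptors (Nr1d1, Nr1d2) and Dbp. PER and CRY proteins return to block CLOCK and BMAL1, while the REV-ERB receptors repress Arntl through ROR elements, and DBP activates genes with D-boxes, Per3 among them. In epidermis the clock is known to time keratinocyte division and DNA repair.

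These elements were looked up in the 250 bases before each RefSeq transcription start (GRCm38.p6), for which 9 of the 10 genes had an entry, with 13 starts in all, and Per2 had none. Both strands were searched. The E-box was searched as CACGTG. The E-prime box was searched as CACGTT, which reads AACGTG on the other strand. The D-box was searched as TTANGTAA. The ROR element was searched as TAGGTCA. The cyclic AMP response element was searched as TGACGTCA. No match of 1 motif overlapped a match of another. The 5 stretches that hold a match are shown from RefSeq, 5′ to 3′ on the strand of the gene, with the matches in capitals. These are matches of letters to the elements named above, and binding at them was not tested. None of the 5 stretches overlapped an exon in GENCODE M21.
Per3, 2 D-boxes, chr4:151044791-151044895, minus strand: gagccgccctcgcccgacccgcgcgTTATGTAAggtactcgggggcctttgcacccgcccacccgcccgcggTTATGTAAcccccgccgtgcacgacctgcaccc
Cry1, an E-prime box and an E-box, chr10:85185084-85185158, minus strand: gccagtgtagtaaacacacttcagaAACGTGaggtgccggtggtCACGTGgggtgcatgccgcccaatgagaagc
Per1, an E-box, chr11:69098758-69098813, plus strand: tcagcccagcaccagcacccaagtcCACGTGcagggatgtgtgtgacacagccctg
Nr1d1, an E-prime box, chr11:98775378-98775430, minus strand: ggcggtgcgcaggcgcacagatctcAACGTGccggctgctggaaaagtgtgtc
Cry2, an E-prime box, chr2:92434205-92434260, minus strand: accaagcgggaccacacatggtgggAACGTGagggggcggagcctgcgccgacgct

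Counted from the start, with -1 as the last base before it, the D-boxes of Per3 began at -205 and -158, the E-prime box and the E-box of Cry1 at -79 and -60, the E-box of Per1 at -166 from its upstream start, and the E-prime boxes of Nr1d1 and Cry2 at -28 and -166. Of all 32851 promoters of this length, 6.02% held the E-box, 3.85% the E-prime box, 2.06% the D-box, 2.23% the ROR element and 1.55% the cyclic AMP response element. The windows of Clock, Arntl, Nr1d2 and Dbp held no match, which says only that these letters were not in these bases. The GENCODE model of Dbp begins before the RefSeq start, so its window lies partly inside the gene. The model of Per1 begins at chr11:69095217, so its windows and the E-box lie inside the gene. Windows of Clock, Arntl, Cry1 and Nr1d2 also reached into their GENCODE models. The Per3 stretch lies inside the span of Camta1.

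Total counts were 30298275 to 64771160 per library, so that a count of 3 corresponded to 0.0471 to 0.104 CPM (counts scaled to a TMM-adjusted total of 1000000 per library), and the lowest clock gene value was 14.2 CPM. The 9 keratinocyte markers summed to 46133 to 69147 CPM, so the labelled tissue was present in every library. VAS+H2O replicate 2 stood apart by its dermal fibroblast markers (646 CPM summed over 7 genes, against 72.9 and 104 in the other VAS+H2O libraries) and muscle markers (141 CPM over 6 genes). IMQ+H2O replicate 3 stood apart by its markers of neutrophils and myeloid cells (81.9 CPM over 5 genes, against 15.7 and 17.5 in its group). IMQ+XYF replicate 1 was likewise highest in its group for these markers (57.9 CPM, against 15.9 and 24.4) and for the fibroblast markers (210 CPM, against 157 and 73.5). It was the lowest of its group for 5 clock genes. The levels, calls and correlations of the clock genes, and the calls of the further genes described by role, are also given without VAS+H2O replicate 2 and IMQ+H2O replicate 3. IMQ+XYF replicate 1 was left out for the calls of the clock genes only.

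Per kilobase of exon, Nr1d1 was the most abundant clock transcript of Vaseline-treated epidermis, at 105 ± 13.5 RPKM (mean ± SD, n = 3), and Arntl the least abundant, at 6.53 ± 0.449 RPKM. Between them stood Per1 at 46.3 ± 17.2, Nr1d2 at 28.1 ± 2.41, Dbp at 22.5 ± 3.18, Cry2 at 22.5 ± 3.89, Per3 at 9.47 ± 1.92, Clock at 8.65 ± 1.77, Cry1 at 7.52 ± 0.857 and Per2 at 7.21 ± 0.359 RPKM. In this order, only the steps from Nr1d1 to Per1 and from Cry2 to Per3 were wider than the summed SDs of the neighbours. In IMQ+H2O epidermis Nr1d1 still led, at 53.6 ± 11.1 RPKM, but Dbp moved from the fourth to the seventh place, at 6.75 ± 2.09 RPKM, and Per2, at 4.32 ± 1.05 RPKM, and Per3, at 4.61 ± 1.72 RPKM, stood below Arntl at 6.28 ± 0.281 RPKM. In IMQ+XYF epidermis Dbp was again the seventh, at 8.89 ± 2.80 RPKM. Without VAS+H2O replicate 2, the mean of Cry2 (21.0 RPKM) came before that of Dbp (20.7 RPKM) and the mean of Clock (9.09 RPKM) before that of Per3 (8.88 RPKM), while Nr1d1 and Arntl stayed at the ends (97.3 and 6.55 RPKM). Without IMQ+H2O replicate 3, Dbp was still the seventh in its group, at 7.75 RPKM.

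The comparison of IMQ+H2O with VAS+H2O asked what imiquimod did to the epidermal transcriptome. In all, 5 clock genes fell, namely Dbp, Per3, Nr1d1, Nr1d2 and Per2, and none rose. CLOCK and BMAL1 drive these 5 genes, and Per1, Cry1 and Cry2 as well. The activators Clock and Arntl were not called, nor were Per1, Cry1 and Cry2. A gene was called when its p from edgeR's quasi-likelihood test, adjusted by Benjamini-Hochberg over the 18009 genes tested, did not exceed 0.05, and of these genes 9.41% were called lower and 12.7% higher. Thus 5 of 10 clock genes were called lower, with a median log2 fold change of -0.66 over the 10, beside a median of -0.03 over all genes tested. In these bulk libraries, fewer cells of a type and less RNA per cell cannot be told apart.

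Dbp, a bZIP activator that binds D-boxes, changed the most. In the order of the replicates it was at 62.3, 78.4 and 61.7 CPM in VAS+H2O and at 19.7, 26.7 and 14.2 CPM in IMQ+H2O. Every imiquimod library lay below every Vaseline library, and the imiquimod mean was 29.9% of the Vaseline mean. The log2 fold change was -1.76 (SE 0.24, 95% interval -2.31 to -1.20, edgeR adjusted p = 0.00810).

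Nr1d1, which encodes REV-ERBα, was at 300.1, 372 and 299 CPM in VAS+H2O and at 191, 178 and 126 CPM in IMQ+H2O. Its imiquimod mean was 51.0% of the Vaseline mean, with a log2 fold change of -0.99 (SE 0.18, 95% interval -1.40 to -0.57, edgeR adjusted p = 0.0138). Nr1d2, which encodes REV-ERBβ, was at 139, 153 and 165 CPM in VAS+H2O and at 97.1, 98.4 and 74.3 CPM in IMQ+H2O. Both receptors of the repressing arm thus fell, and neither had overlapping groups. The log2 fold change of Nr1d2 was -0.77 (SE 0.13, 95% interval -1.08 to -0.47, edgeR adjusted p = 0.0122).

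The period genes, whose proteins block CLOCK and BMAL1, differed among themselves. Per3 was at 101, 102 and 69.7 CPM in VAS+H2O and at 56.8, 50.5 and 25.6 CPM in IMQ+H2O, a log2 fold change of -1.06 (SE 0.30, 95% interval -1.78 to -0.34, edgeR adjusted p = 0.0482). Per2 was at 41.1, 40.9 and 44.6 CPM in VAS+H2O and at 25.2, 31.5 and 19.2 CPM in IMQ+H2O, a log2 fold change of -0.75 (SE 0.18, 95% interval -1.17 to -0.33, edgeR adjusted p = 0.0273). The groups did not overlap for either gene. Per1 was at 152, 337 and 294 CPM in VAS+H2O and at 231, 190 and 162 CPM in IMQ+H2O. The lowest of these was a Vaseline library, the groups overlapped, and Per1 was not called at a log2 fold change of -0.44 (95% interval -1.14 to 0.26, edgeR adjusted p = 0.315).

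Among the cryptochromes, Cry2 was at 114, 161 and 151 CPM in VAS+H2O and at 107, 112 and 71.7 CPM in IMQ+H2O, with a log2 fold change of -0.57 (95% interval -1.05 to -0.09, edgeR adjusted p = 0.0867). Cry1 was at 28.2, 22.5 and 24.7 CPM in VAS+H2O and at 32.5, 29.8 and 29.0 CPM in IMQ+H2O, with a log2 fold change of 0.26 (95% interval -0.001 to 0.53, edgeR adjusted p = 0.134). Neither passed the threshold, although neither had overlapping groups, with Cry2 below and Cry1 above its Vaseline values. DESeq2, run as an alternative, called Cry2 (adjusted p = 0.0297) beside the same 5 genes, and over the 13 alternatives the adjusted p of Cry2 ranged from 0.0297 to 0.893.

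The activators, which drive the rest of the loop, were not called. Arntl was at 45.9, 48.9 and 52.7 CPM in VAS+H2O and at 45.4, 49.6 and 46.7 CPM in IMQ+H2O, with a log2 fold change of -0.07 whose 95% interval, -0.28 to 0.13, was the narrowest of the 10. Clock was at 147, 107 and 103 CPM in VAS+H2O and at 156, 148 and 96.4 CPM in IMQ+H2O, with a log2 fold change of 0.15 (95% interval -0.35 to 0.66). Without overlap between the groups stood 6 clock genes that were lower, beside 21.4% of 18492 genes, and Cry1 alone that was higher, beside 23.1%. With a log2 fold change of at least 1 in size as a further demand, 2 clock genes stayed called (Dbp and Per3), beside 4.04% of all genes lower by this rule. The plot of levels by library shows these values.

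**Figure D1:**
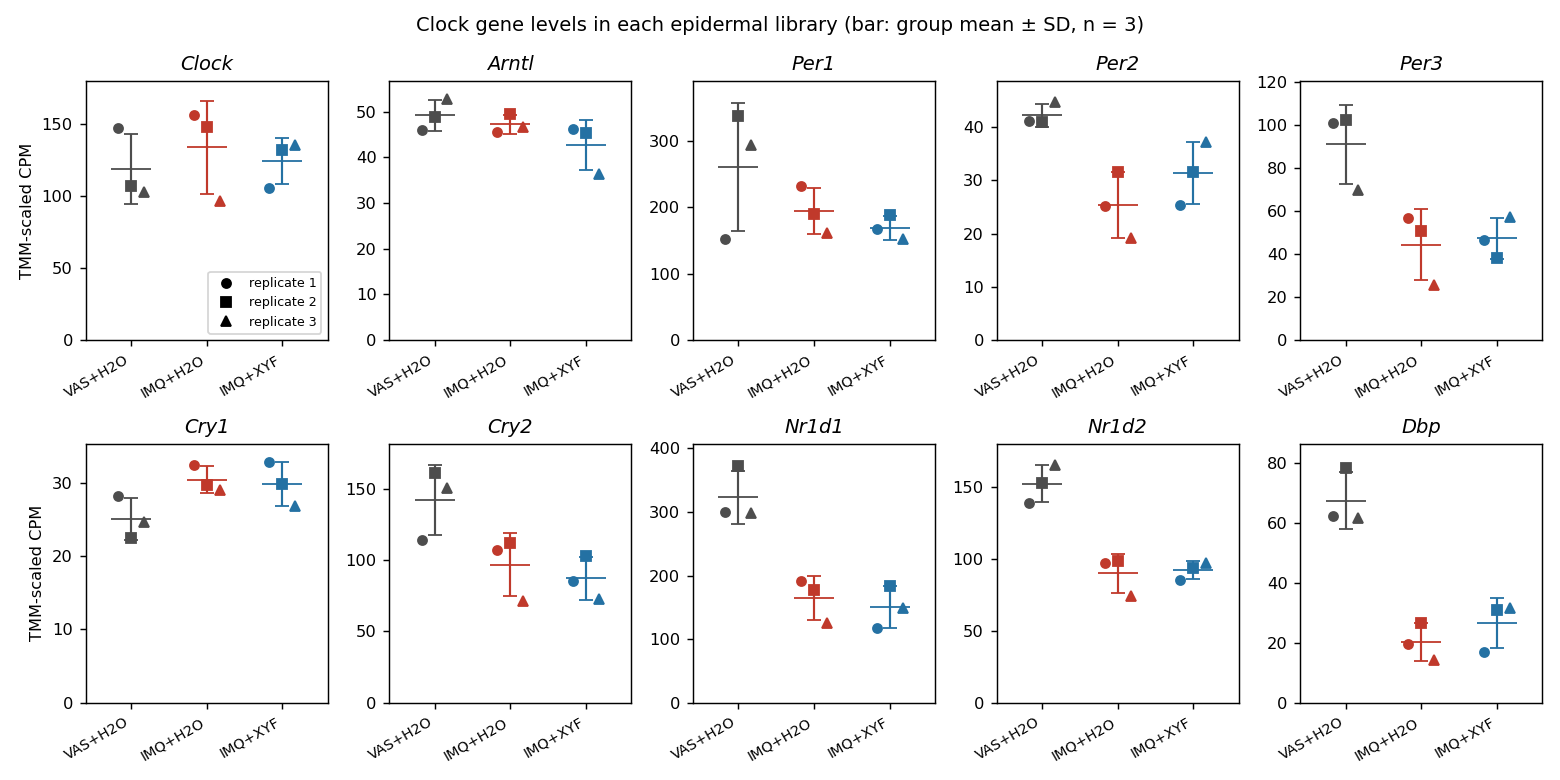
Levels of the 10 clock genes in TMM-scaled CPM (vertical axes, each from 0) in the 9 epidermal libraries, by group. Symbols mark replicates, and the horizontal and vertical bars are the group mean and SD (n = 3). Dbp lay at 61.7 to 78.4 CPM in VAS+H2O and at 14.2 to 31.8 CPM in all libraries with imiquimod, whereas the 3 groups of Clock overlapped.

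Dbp, Nr1d1 and Nr1d2 stayed called when any of the 6 libraries was left out, with log2 fold changes of -1.97 to -1.55, -1.07 to -0.83 and -0.84 to -0.65, respectively. Without VAS+H2O replicate 2 they were -1.62, -0.87 and -0.76, and without IMQ+H2O replicate 3 they were -1.55, -0.83 and -0.65. Per3 missed the threshold whichever library was left out, at -0.96 without VAS+H2O replicate 2 and -0.78 without IMQ+H2O replicate 3, and its edgeR adjusted p was then 0.0533 to 0.133. Per2 missed it without VAS+H2O replicate 1, 2 or 3 or IMQ+H2O replicate 1, with log2 fold changes of -0.78, -0.77, -0.68 and -0.71 and edgeR adjusted p of 0.0695 to 0.0853. It stayed called at -0.58 without IMQ+H2O replicate 3 (edgeR adjusted p = 0.0391). IMQ+H2O replicate 3 was the lowest library of its group for 9 of the 10 clock genes, all but Arntl.

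RNA of the tissue under the epidermis moved with the same comparison. The 8 cartilage markers summed to 189 to 448 CPM in VAS+H2O, 37.0 to 80.7 CPM in IMQ+H2O and 136 to 195 CPM in IMQ+XYF, and all 6 that were tested were called lower under imiquimod with water, while Matn1 was at 0 in every library. The 7 dermal fibroblast markers summed to 72.9 to 646 CPM, 48.0 to 53.2 CPM and 73.5 to 210 CPM in the same order of groups, and 2 of 7 were called lower in IMQ+H2O. With the mean log2 CPM of both lists as a covariate, edgeR called 0 clock genes and 0 of all genes between IMQ+H2O and VAS+H2O, and 2 and 2176 had an unadjusted p under 0.05. Dbp then had a log2 fold change of -1.34 (adjusted p = 0.337, within a range of 7.69e-12 to 0.337 over 13 alternatives), Nr1d2 of -0.66, Per2 of -0.74, Per3 of -0.72, Nr1d1 of -0.58 and Per1 of 0.43. The covariate was 3.31 to 5.66 in the Vaseline libraries and 1.77 to 2.12 in the IMQ+H2O libraries, without overlap, so the part of treatment and the part of underlying tissue in these differences cannot be told apart in this comparison.

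Markers of other cells differed between the groups as well. The 4 T cell markers summed to 43.5 to 49.2 CPM in VAS+H2O, 24.3 to 33.8 CPM in IMQ+H2O and 22.7 to 34.2 CPM in IMQ+XYF, and 2 of 4 were called lower in each imiquimod group against VAS+H2O. The 4 markers of dividing cells summed to 139 to 401 CPM, 510 to 722 CPM and 641 to 850 CPM in the same order, and 1 of 4 was called higher in IMQ+H2O and 4 of 4 in IMQ+XYF. None of the markers of both lists was at 0 in all libraries, and their part in the clock gene results was not tested.

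**Figure D2:**
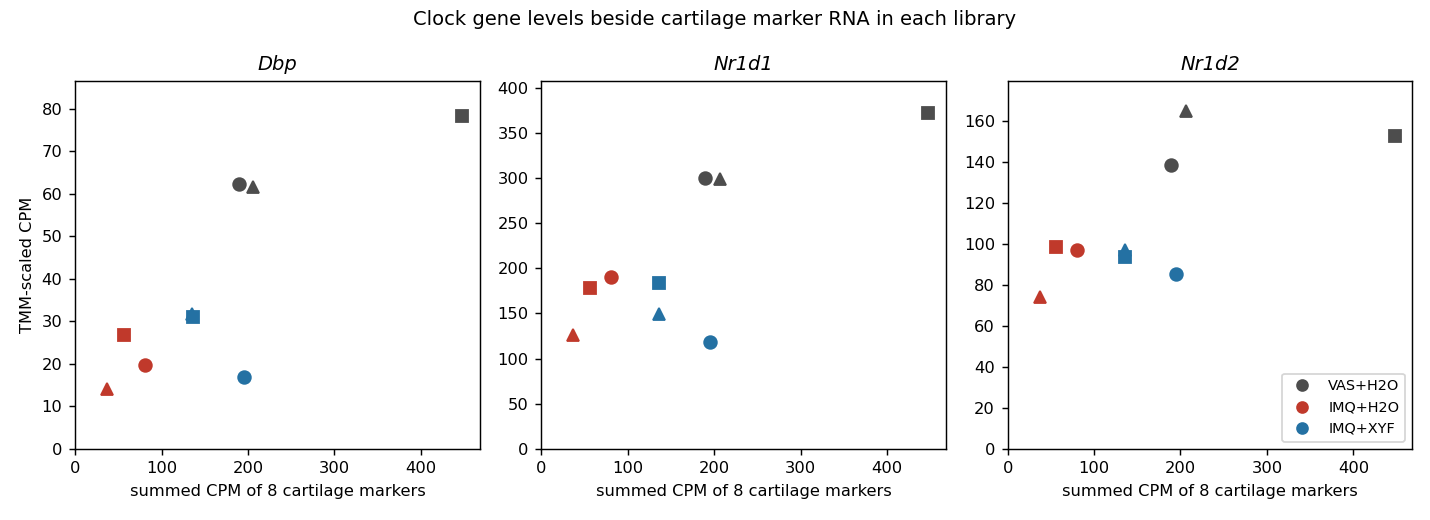
Levels of Dbp, Nr1d1 and Nr1d2 in TMM-scaled CPM (vertical axes, from 0) against the summed CPM of 8 cartilage markers (horizontal axes) in each of the 9 libraries. Circles, squares and triangles are replicates 1, 2 and 3. Cartilage sums were 189 to 448 CPM in VAS+H2O, 37.0 to 80.7 CPM in IMQ+H2O and 136 to 195 CPM in IMQ+XYF. Dbp levels were 61.7 to 78.4, 14.2 to 26.7 and 16.9 to 31.8 CPM in the same order of groups.

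In IMQ+XYF the covariate was 3.19 to 4.18, within or close to the Vaseline range. The comparison of IMQ+XYF with VAS+H2O shares the Vaseline libraries with the first. Again 5 clock genes fell, namely Dbp, Nr1d1, Per3, Nr1d2 and Cry2, and none rose, beside 12% of 17954 genes called lower and 16.7% called higher. The median log2 fold change was -0.66 over the 10 clock genes and -0.04 over all genes tested. By the rule that adds a log2 fold change of at least 1 in size, 2 were called (Dbp and Nr1d1), beside 3.05% of all genes lower. With the cartilage and fibroblast covariate, the same 5 clock genes were called.

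In IMQ+XYF, Dbp was at 16.9, 31.1 and 31.8 CPM, all below the Vaseline range, and its log2 fold change against VAS+H2O was -1.35 (SE 0.25, 95% interval -1.93 to -0.76, edgeR adjusted p = 0.00889). Nr1d1 was at 118, 184 and 149 CPM, with a log2 fold change of -1.11 (SE 0.17, 95% interval -1.52 to -0.70, edgeR adjusted p = 0.00511). Nr1d2 was at 85.4, 93.8 and 97.0 CPM, with a log2 fold change of -0.72 (SE 0.09, 95% interval -0.93 to -0.52, edgeR adjusted p = 0.00223). For these 3 genes the fall was thus seen with imiquimod in both sets of libraries, against the same 3 Vaseline libraries.

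Per3 was at 46.5, 38.1 and 57.1 CPM in IMQ+XYF, a log2 fold change of -0.95 against VAS+H2O (95% interval -1.41 to -0.48, edgeR adjusted p = 0.0135). Cry2 was at 85.5, 103 and 73.1 CPM, a log2 fold change of -0.70 (95% interval -1.10 to -0.30, edgeR adjusted p = 0.0221). Per2 was at 25.4, 31.6 and 37.2 CPM, also below each Vaseline library, with a log2 fold change of -0.43 that was not called (95% interval -0.76 to -0.09, edgeR adjusted p = 0.0628). Together with the 5 called genes it made up the 6 clock genes that stood lower without overlap, beside 22% of 18492 genes. Per1 was at 168, 188 and 152 CPM, a log2 fold change of -0.62 (95% interval -1.28 to 0.03, edgeR adjusted p = 0.136). The activators and Cry1 were again not called, with 46.3, 45.4 and 36.4 CPM for Arntl, 106, 132 and 135 CPM for Clock, and 32.8, 29.8 and 26.8 CPM for Cry1.

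Some of these calls changed when a single library was left out. Dbp, Nr1d1 and Nr1d2 stayed called without each of the 6 libraries, at -1.22, -0.995 and -0.72 without VAS+H2O replicate 2, where Per3 was at -0.85. In contrast, Cry2 missed the threshold at -0.60 without VAS+H2O replicate 2, at -0.64 without VAS+H2O replicate 3, at -0.67 without IMQ+XYF replicate 1 and at -0.59 without IMQ+XYF replicate 3 (edgeR adjusted p of 0.0659 to 0.0790). Per3 missed it at -0.91 without IMQ+XYF replicate 1 (edgeR adjusted p = 0.0517). Per1 was called at -0.90 without VAS+H2O replicate 1 (edgeR adjusted p = 0.00814), the Vaseline library in which it stood at 152 CPM beside 337 and 294 CPM. Per2 was called at -0.57 without IMQ+XYF replicate 3 (edgeR adjusted p = 0.0342).

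What the decoction added under imiquimod was asked by setting IMQ+XYF against IMQ+H2O. The cartilage and fibroblast covariate was 3.19 to 4.18 in IMQ+XYF and 1.77 to 2.12 in IMQ+H2O, without overlap. Of 6 cartilage markers tested, 2 were called higher in IMQ+XYF. The part of the decoction and the part of underlying tissue thus cannot be told apart here either. No clock gene differed between these groups in edgeR's test, where 0 of 10 were called, 0 had an unadjusted p under 0.05 and DESeq2 called 0 as well. Of all 17793 genes tested, 0.0281% were called. The adjusted p was 0.9999 for each clock gene, and the groups overlapped for each of the 10, beside 10.7% of 18492 genes without overlap in either direction. The median log2 fold change was -0.06 over the clock genes and 0.00 over all genes. Without IMQ+H2O replicate 3, 2 clock genes had an unadjusted p under 0.05 in edgeR's test, and 0 were called. Without IMQ+XYF replicate 1, 1 had such a p and 0 were called.

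The intervals show how large a difference this fit, which held no covariate, could have hidden. For Dbp the log2 fold change was 0.40 (95% interval -0.33 to 1.13), and the ranges of 16.9 to 31.8 CPM in IMQ+XYF and 14.2 to 26.7 CPM in IMQ+H2O overlapped. For Per2 it was 0.31 (95% interval -0.19 to 0.82) and for Per3 0.10 (95% interval -0.60 to 0.81). Without IMQ+H2O replicate 3 these values were 0.19, 0.14 and -0.18. These were the low ends of the ranges over the libraries left out singly. The ranges were 0.19 to 0.66 for Dbp, 0.14 to 0.50 for Per2 and -0.18 to 0.31 for Per3. The remaining genes lay nearer 0 or on the lower side, with -0.19 for Per1 (95% interval -0.53 to 0.15), -0.14 for Cry2 (-0.61 to 0.32), -0.14 for Arntl (-0.40 to 0.12), -0.13 for Nr1d1 (-0.61 to 0.35), -0.10 for Clock (-0.55 to 0.35), -0.02 for Cry1 (-0.27 to 0.23) and 0.04 for Nr1d2 (-0.25 to 0.33). Per2 was called against VAS+H2O in the IMQ+H2O group alone and Cry2 in the IMQ+XYF group alone, and this direct test did not separate the imiquimod groups for either gene.

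**Figure D3:**
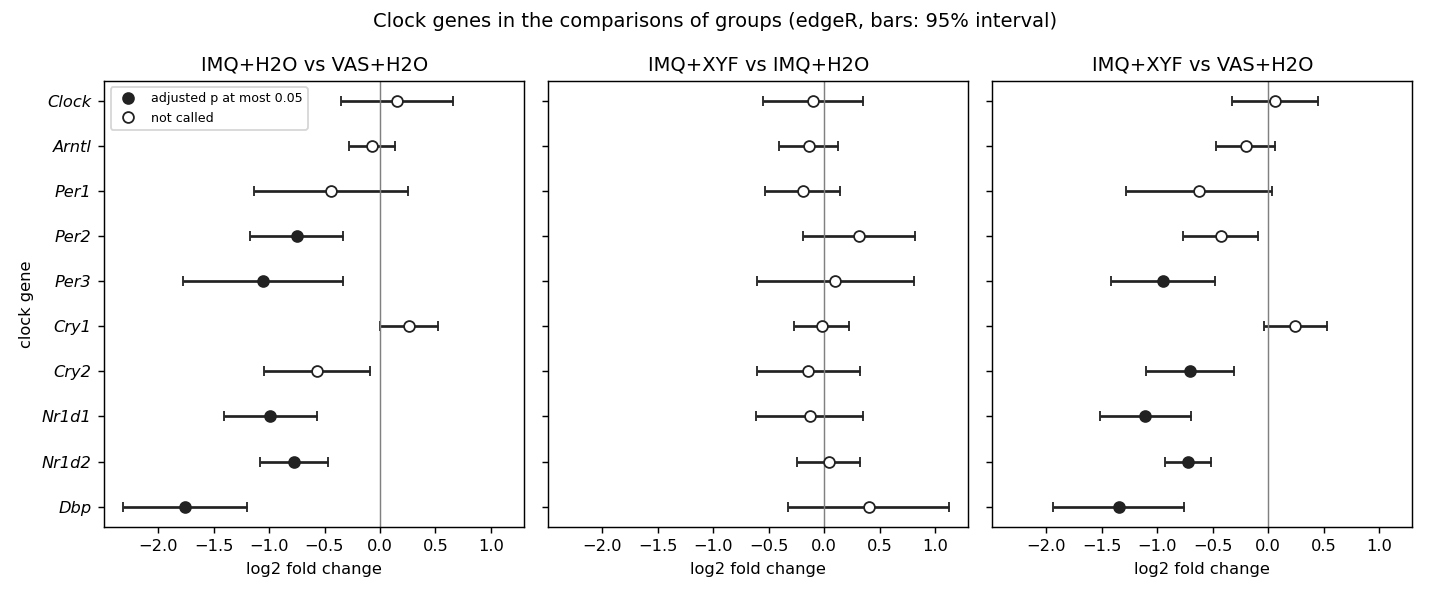
Log2 fold changes (horizontal axis) of the 10 clock genes in the 3 comparisons of groups, each fitted on its own 6 libraries with edgeR, with 95% intervals. Filled points have an adjusted p of at most 0.05. The comparisons share groups, so the left and right panels are not independent, and every interval of the middle panel spans 0.

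Ratios of raw counts within a library do not depend on scaling between libraries, and they set Dbp, Nr1d1 and Per3 against members that were not called. The ratio of Dbp to Arntl was 1.36, 1.61 and 1.17 in VAS+H2O, 0.434, 0.539 and 0.304 in IMQ+H2O, and 0.366, 0.686 and 0.874 in IMQ+XYF. Thus Dbp had more counts than Arntl in each Vaseline library and fewer in each imiquimod library. The ratio of Nr1d1 to Arntl was 6.54, 7.60 and 5.67 in VAS+H2O, 4.20, 3.59 and 2.70 in IMQ+H2O, and 2.55, 4.05 and 4.10 in IMQ+XYF. The ratio of Per3 to Cry1 was 3.58, 4.54 and 2.82, then 1.75, 1.70 and 0.882, and then 1.42, 1.28 and 2.13 in the same groups. None of the 3 ratios had a Vaseline library inside the range of the imiquimod libraries. Since called genes stand over genes not called, this separation follows largely from the tests above. The ratio of Per2 to Cry1 also separated, at 1.46 to 1.82 in VAS+H2O and 0.662 to 1.39 with imiquimod. In contrast, the ratios of Per1 to Per2 (3.70 to 8.23 and 4.09 to 9.16) and of Nr1d1 to Nr1d2 (1.81 to 2.43 and 1.38 to 1.97) overlapped.

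The ratio of Dbp to Nr1d1 compares a pair of genes that both fell. It was 0.207, 0.211 and 0.206 in VAS+H2O, 0.103, 0.150 and 0.113 in IMQ+H2O, and 0.143, 0.169 and 0.213 in IMQ+XYF. The Vaseline libraries were nearly equal, and each IMQ+H2O library lay below them. In IMQ+XYF one library reached the Vaseline ratio. With 3 libraries a group, an exact permutation test of such a ratio cannot give a two-sided p below 0.1, and none was run.

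**Figure D4:**
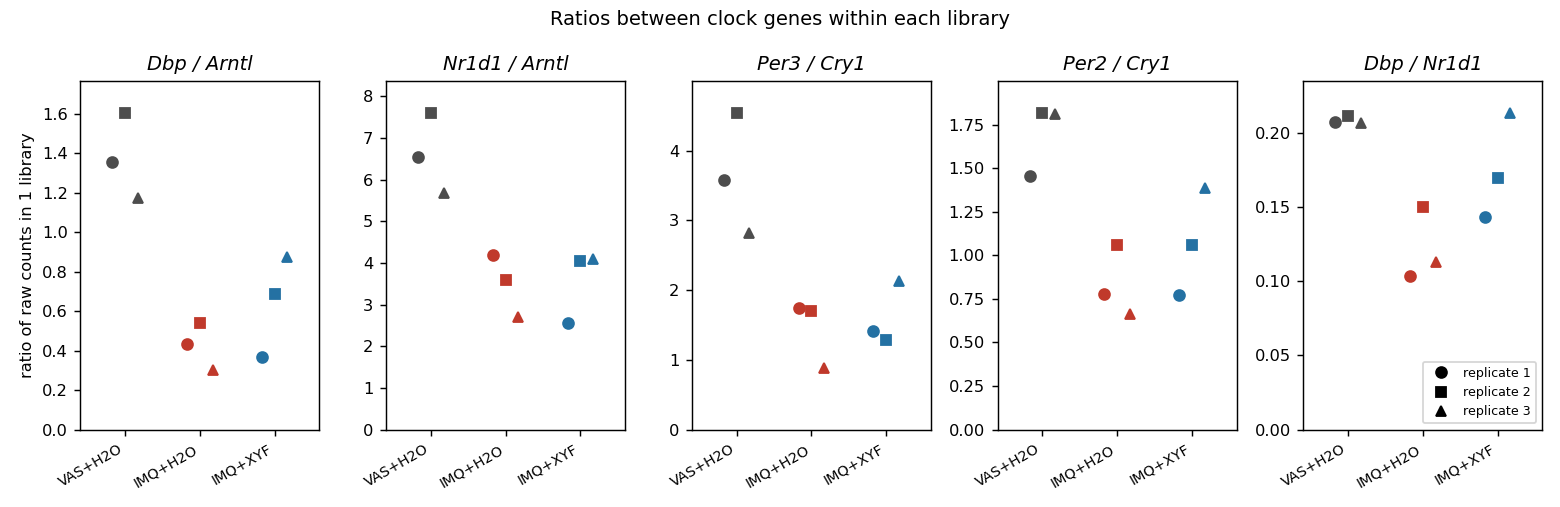
Ratios of raw counts between clock genes within each of the 9 libraries (vertical axes, from 0), by group, with a symbol for each replicate. The ratio of Dbp to Arntl lay at 1.17 to 1.61 in VAS+H2O and at 0.304 to 0.874 in the imiquimod libraries.

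As a share of all counts, the 10 genes together took 0.120% to 0.151% in VAS+H2O, 0.0656% to 0.0919% in IMQ+H2O and 0.0718% to 0.0857% in IMQ+XYF. The Vaseline libraries lay above all others. Within groups the clock genes also varied together to different degrees. Over the 9 libraries, after each group's mean log2 CPM was removed, Pearson's r was 0.87 between Per2 and Dbp, 0.85 between Per2 and Nr1d2 and 0.84 between Nr1d1 and Dbp, whereas it was -0.48 between Cry1 and Dbp and -0.42 between Arntl and Per3. These are descriptions over libraries that share their depth and tissue content between genes, and the low values of IMQ+H2O replicate 3 enter most of them. Without that library, in the same order, r was 0.81, 0.67, 0.76, -0.77 and -0.80. Without VAS+H2O replicate 2 it was 0.93, 0.86, 0.83, -0.41 and -0.42. Of the other clock genes, Cry2 came nearest to Arntl (r = 0.56, and 0.72 and 0.60 without the former and the latter library).

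Other genes of the clock, its outputs and glucocorticoid targets were described by role, over 30 genes of which 29 were tested. Against VAS+H2O, 6 were called lower and 1 higher in IMQ+H2O, and 8 lower and 3 higher in IMQ+XYF. Against IMQ+H2O, none was called in IMQ+XYF by edgeR or by DESeq2, with 1 at an unadjusted p under 0.05 (Zbtb16, -1.06 on the log2 scale, adjusted p = 0.818). The median log2 fold change of the 29 was -0.20 in IMQ+H2O and -0.19 in IMQ+XYF against VAS+H2O. The called shares of all genes are those given for the clock genes above. Most of the calls in IMQ+H2O were lost without VAS+H2O replicate 2 or without IMQ+H2O replicate 3. Calls over all genes then also fell, from 3986 to 1446 (534 lower) and to 2131 (744 lower), respectively. Without VAS+H2O replicate 2, Tef was the only one of the 29 that edgeR called in IMQ+H2O, and without IMQ+H2O replicate 3 Tef and Btrc were called. Bhlhe41, Tsc22d3, Por, Sgk1 and Klf9 missed the threshold in both cases, with log2 fold changes of -1.33, -1.03, 0.57, -0.63 and -0.94 in the former and -1.15, -1.04, 0.37, -0.69 and -0.96 in the latter. In IMQ+XYF, 6 were called lower and 3 higher without VAS+H2O replicate 2, and Hlf (-0.83) and Klf9 (-1.02) then missed the threshold. Calls over all genes then fell from 5152 to 3849 (1532 lower).

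The D-box factors include Tef and Hlf, relatives of Dbp that activate the same element, and Nfil3, which represses it. Tef was at 270, 235 and 247 CPM in VAS+H2O, 149, 165 and 111 CPM in IMQ+H2O, and 127, 159 and 151 CPM in IMQ+XYF. Its log2 fold change against VAS+H2O was -0.84 in IMQ+H2O (edgeR adjusted p = 0.0140) and -0.78 in IMQ+XYF (edgeR adjusted p = 0.00285), so Tef fell together with Dbp. Hlf was called in IMQ+XYF (-0.80, edgeR adjusted p = 0.0280) and not in IMQ+H2O (-0.46, edgeR adjusted p = 0.319), where its libraries ranged from 86.9 to 205 CPM. Nfil3 was not called in either, at 0.46 and 0.62 on the log2 scale.

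Among the partners and relatives of the activators, Npas2, a paralog of Clock, was called lower in IMQ+XYF (-1.30, edgeR adjusted p = 0.00743) and had -0.78 in IMQ+H2O (edgeR adjusted p = 0.0625). Arntl2, the paralog of Arntl, had 0.42 and 0.40 in IMQ+H2O and IMQ+XYF without being called. Of the ROR receptors, which activate Arntl at the element that REV-ERB receptors occupy, Rora was not called in either group, and Rorb was at 0 in 8 of 9 libraries and not tested. Of the further repressors, Bhlhe41 (DEC2) fell in IMQ+H2O (-1.35, edgeR adjusted p = 0.0236) and in IMQ+XYF (-0.96, edgeR adjusted p = 0.0174), while Bhlhe40, Ciart and Cipc were not called.

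The kinases and ubiquitin ligases set the life span of PER and CRY proteins. Of 6, Btrc was called lower in both groups (-0.66 and -0.52), and the casein kinase genes Csnk1d and Csnk1e and Gsk3b were not called. Of 9 outputs that cycle in many tissues, Tsc22d3 fell in both (-1.23 and -1.42), Por rose in both (0.49 and 0.34), and Nampt (0.34) and Tspan4 (0.71) were called higher in IMQ+XYF. Of 6 targets of the glucocorticoid receptor, a second time signal to skin, Tsc22d3, Sgk1 and Klf9 fell in both, Sgk1 by 0.80 and 0.86 and Klf9 by 1.14 and 1.21 on the log2 scale. Fkbp5, another such target, had 0.84 in IMQ+H2O without being called (edgeR adjusted p = 0.0502), so this list did not move one way. Per1, which belongs to it as well, was not called.

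**Figure D5:**
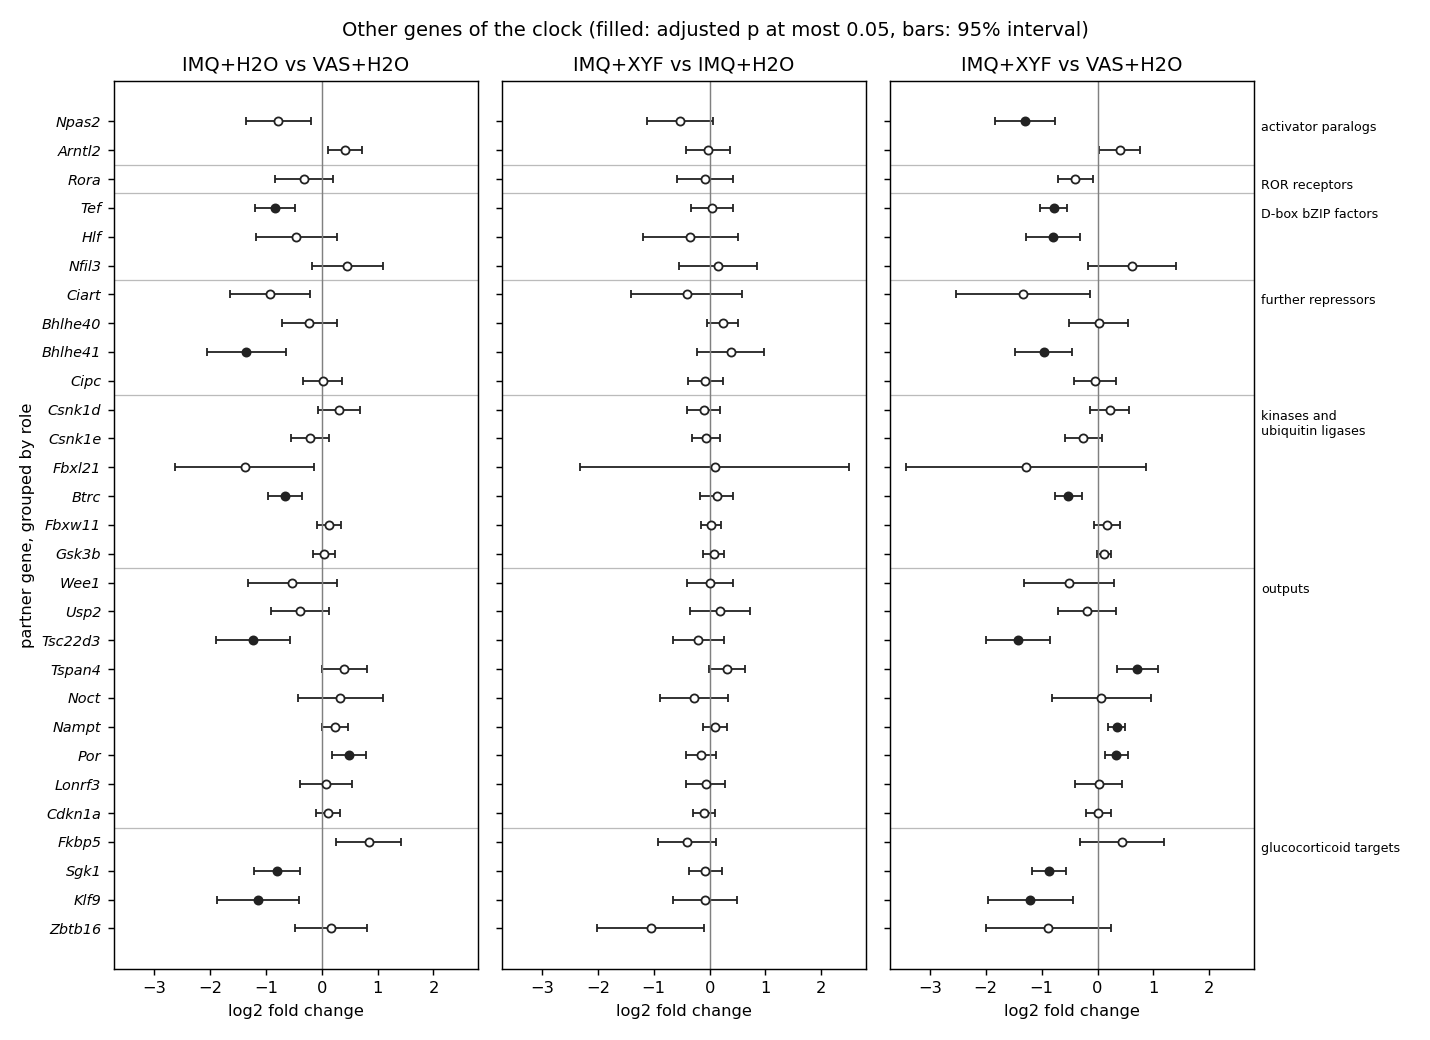
Log2 fold changes (horizontal axis) with 95% intervals of 29 further genes of the clock, its outputs and glucocorticoid targets, grouped by role, in the 3 comparisons. Filled points have an adjusted p of at most 0.05, and Tsc22d3, also a glucocorticoid target, stands among the outputs. Called genes numbered 7 in IMQ+H2O and 11 in IMQ+XYF against VAS+H2O, and 0 between the imiquimod groups.

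Some clock genes share exonic bases with a gene on the opposite strand, and how the counting treated strand is not given in the sources used here. Nr1d1 (chr11:98767932-98775333, minus strand) shares 263 exonic bases, 8.55% of its exon length, with Thra, the thyroid hormone receptor α gene. Thra was at 108, 130 and 97.5 CPM in VAS+H2O and 67.9, 61.4 and 46.2 CPM in IMQ+H2O, and it was also called lower, at -0.95 in IMQ+H2O (edgeR adjusted p = 0.0145) and -0.91 in IMQ+XYF (edgeR adjusted p = 0.00256). Dbp (chr7:45705088-45710203, plus strand) shares 539 exonic bases, 18.0% of its exon length, with Sphk2, which was not called at -0.37 and -0.35 against VAS+H2O. Without the strand, reads of shared bases cannot be assigned to either gene, and the log2 fold changes of Nr1d1 and Thra in IMQ+H2O were -0.99 and -0.95 while those of Dbp and Sphk2 were -1.76 and -0.37. Cry2 (chr2:92403646-92434043, minus strand) shares 295 exonic bases, 4.67% of its exon length, with D930015M05Rik, a transcript at 2.23 to 6.61 CPM. Per2 (chr1:91415982-91459324) and Nr1d2 (chr14:18204054-18239127), both on the minus strand, shared no exonic base with another gene, and Per3 (chr4:151003652-151044665, minus strand) lies inside Camta1 without sharing an exonic base.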

How the data were processed

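The authors deposited whole-number counts per gene without normalization, 1 column per library, with symbols and Ensembl identifiers. The submitters' processing notes name FastQC, STAR 2.5, Cuffnorm, DESeq 1.22.1 and GRCm38. The counting tool and its strand setting are not given in the sources used here. Labels call the libraries strand-specific, whereas the study's methods name a TruSeq RNA kit (v2) and do not call them so. Dermal samples were not analysed here. Groups and replicate numbers came from the sample titles.

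Counts were tested with edgeR 4.0.16 (R 4.3.3; TMM, filterByExpr, glmQLFit, glmQLFTest) on the 6 libraries of each comparison, with Benjamini-Hochberg adjustment over all genes tested. Standard errors and 95% intervals were derived from the F statistic. CPM used TMM-scaled totals, and RPKM also divided by the union of GENCODE M21 exons. Log2 CPM for the correlations had a prior count of 2. Floors of 3 counts cover counting error only. Alternatives were DESeq2 1.42.0, RLE factors, other filters (none, or at least 10 counts in every library), 1 fit of all 9 libraries, a replicate block, a marker covariate, a fold rule and leaving out each library. For RPKM, correlations and partner genes, the libraries left out (VAS+H2O replicate 2 and IMQ+H2O replicate 3) were chosen after seeing the data. The calculation was tested on simulated data.

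All 10 members were named. Partner genes were named where called, with further members of their roles, and genes overlapping a member were named by the annotation. Some genes of the lists, and the ranking of genes by likeness to Arntl, are not reported here. The members and lists were chosen with earlier results of these data known. Replicates of a group differed by more than sampling noise (chi-square per gene of 25.1 to 80.4), so none was merged. Promoters were RefSeq sequences of GRCm38.p6, the build of the counts.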

Additional observations from a re-analysis of the deposited data

How the results depend on the processing

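Calls of Dbp, Nr1d1 and Nr1d2 against VAS+H2O kept their direction and passed the threshold under each of 13 alternative fits in IMQ+XYF, and under 12 of 13 in IMQ+H2O, the exception being the cartilage and fibroblast covariate. When a log2 fold change of at least 1 in size was also demanded, the calls of Nr1d1 (-0.99) and Nr1d2 (-0.77) in IMQ+H2O and of Nr1d2 (-0.72) in IMQ+XYF were lost. In IMQ+H2O against VAS+H2O, 5 clock genes of 3986 called genes became 2 of 1383 with the log2 fold change rule and 0 of 0 with the covariate, and 3 to 4 of 1446 to 3077 without single libraries. In IMQ+XYF against VAS+H2O, 5 of 5152 became 2 of 1371 with that rule, and 3 to 6 of 3221 to 4544 without single libraries. Between the imiquimod groups, 5 called genes became 165 with DESeq2, 1 in the fit of all 9 libraries, 0 with the replicate block, 0 with the covariate and 0 to 5 without single libraries, with 0 clock genes throughout. The labels do not say whether replicate numbers pair the samples. With group means removed, correlations between groups were -0.13 to 0.11 for same-numbered libraries and -0.22 to 0.17 for the others. With 3 libraries a group, these correlations cannot exclude a pairing. The replicate block gave 5, 0 and 4 clock genes and 3002, 0 and 3753 genes in the 3 comparisons, in the order IMQ+H2O against VAS+H2O, IMQ+XYF against IMQ+H2O and IMQ+XYF against VAS+H2O. The lost clock gene was Per3, at -0.95 (edgeR adjusted p = 0.0530). Without the filter on low counts, Per3 in IMQ+H2O was at -1.02 (edgeR adjusted p = 0.0649). Values that changed sign were not called before or after. With the covariate, Clock became -0.030 and Per1 0.43 in IMQ+H2O against VAS+H2O, Clock 0.074 between the imiquimod groups and Clock -0.013 in IMQ+XYF against VAS+H2O. Without single libraries, the log2 fold change of Arntl in IMQ+H2O ranged from -0.12 to 0.015, and Clock in IMQ+XYF against VAS+H2O from -0.0099 to 0.25. Between the imiquimod groups the ranges were -0.29 to 0.022 for Clock, -0.11 to 0.047 for Cry1, -0.18 to 0.31 for Per3, -0.087 to 0.11 for Nr1d2 and -0.30 to 0.012 for Nr1d1. DESeq2 further called Per1 (-0.62, adjusted p = 0.0487) and Per2 (-0.42, adjusted p = 0.0323) in IMQ+XYF. The cause of these changes was not tested. The clock genes had 571 to 14196 counts per library, and 3 libraries a group limit the precision.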
